A study of Bos taurus with 15 samples.

Results

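The leukocytes of the jejunum, the middle stretch of the small intestine, were compared between a newborn (NB) and an adult (AD) library of Holstein dairy cattle. A barcode was counted as a leukocyte where it held 500 to 4000 genes, under 50000 unique molecular identifiers (UMIs), at least 1 UMI of *PTPRC*, the gene of the pan-leukocyte surface phosphatase CD45, and 0 UMIs of *EPCAM*, an epithelial adhesion molecule. This gave 9659 cells, 2646 from NB and 7013 from AD jejunum, of 172405 barcodes in the series. The same rule gave 53788 cells over all 15 libraries.

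The series is a droplet single-cell RNA survey of the bovine digestive tract, with 1 library for each tissue and stage. A single cow in lactation was the source of all 4 AD libraries, and which calf gave which NB library is not given in the sources used here. The labels name no treatment or genetic change at either stage and give no ages. The outer muscle coat was stripped in both, after which AD jejunum was digested with the Multi Tissue Dissociation Kit 2 and treated with red blood cell lysis solution, whereas NB jejunum was soaked in EDTA, exposed to trypsin and then digested with the Lamina Propria Dissociation Kit. With 1 library a side, stage, animal and dissociation cannot be told apart, no test across animals could be made, and every interval below covers counting error only.

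The gut wall holds a large share of the leukocytes of the body. Resident macrophages of the lamina propria clear dying cells and microbes and present antigen on class II MHC molecules, dendritic cells carry antigen to lymph nodes, T cells lodge within and beneath the epithelium, and plasma cells export dimeric IgA that is held together by the joining chain. Calves are born without having met gut microbes and receive their first antibodies through colostrum, and lymphocytes continue to be recruited to the gut and expanded there after birth.

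In AD jejunum 63.3% of the 11082 barcodes within the gene and UMI limits were leukocytes, against 20.2% of 13105 in NB. The NB leukocytes held more UMIs a cell, with a median of 10899 UMIs and 2616 genes against 4641 UMIs and 1582 genes in AD. The sums were 28300049 UMIs in NB and 41864578 in AD. Of the classes described below, the myeloid class had a median of 11295 UMIs in NB and 5339 in AD. The T class did not differ in this way, at 4050 and 4108.5 UMIs. The median share of mitochondrial UMIs was 3.65% in NB and 5.12% in AD, and 2 NB and 14 AD cells held 40% or more. The 2 libraries shared 60 barcodes, 6 of them among the leukocytes, while the highest number for any pair of libraries was 84. Levels are given as CPM, the UMIs of a gene scaled to a library sum of 1000000, and ratios as log2 of (AD CPM + 5)/(NB CPM + 5), which understates the ratio of low genes. A gene was counted where the mean of its NB and AD CPM was at least 10 and is called higher in a stage where it was at least 4-fold higher on that scale. Folds printed with an interval are plain ratios of CPM.

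*PTPRC* itself, which chose the cells, summed to 237 CPM in NB and 541 CPM in AD. The gate took 44.2% of the 4950 *EPCAM*-negative myeloid cells of NB (42.9 to 45.6) and 59.3% of the 5476 of AD (58.0 to 60.6), and 55.4% of 186 T cells of NB (47.9 to 62.7) against 89.3% of 3345 in AD (88.2 to 90.3). Just inside the gate were 942 NB and 2192 AD cells with exactly 1 *PTPRC* UMI, of which 77.8% and 58.5% were myeloid. Just outside were 8803 NB and 3570 AD cells with neither gene, of which 31.4% and 62.4% were myeloid, and 128 NB and 114 AD cells with *PTPRC* and 1 UMI of *EPCAM*. A further 159 NB and 92 AD cells were left out for more than 4000 genes, next to 182 and 109 kept with 3600 to 4000. Of NB barcodes with 3 or more UMIs of *COL1A2*, a fibroblast collagen gene, 3.24% held *PTPRC*, and of those with *EPCAM* 9.36% did, against 36.9% of the *EPCAM*-positive cells of AD.

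Markers of other cell types were low but not absent, and were mostly higher in NB. Over all leukocytes the fibroblast and muscle list summed to 278 CPM in NB and 12.2 CPM in AD, and its 3 counted genes of 12 were all called higher in NB. The endothelial list summed to 219 and 29.8 CPM, the epithelial list to 256 and 173 CPM, and the glial list to 8.66 and 1.00 CPM. The erythroid list was lower in NB, at 11.8 against 40.5 CPM. These markers moved with stage. The myeloid and T classes were also summed without the cells that held stromal UMIs, and those values are given for some of the counts and calls that they change. The part of the epithelial, glial and erythroid markers was not tested.

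The make-up of the leukocytes differed between the stages. Cells were placed in 6 classes by short marker lists, with at least 2 UMIs of a list and more than of all the other lists together. The lists were *CD3D*, *CD3E* and *CD3G* for T cells, *CSF1R*, *C1QA*, *C1QB*, *C1QC*, *CD68* and *FLT3* for myeloid cells, genes such as *MS4A1*, *CD79A* and *CD79B* for B cells, *MZB1*, *TNFRSF17* and *DERL3* for plasma cells, *CPA3*, *MS4A2* and *HPGDS* for mast cells, and *CSF3R*, *CXCR2* and *S100A12* for neutrophils. NB leukocytes were mostly myeloid, with 2190 of 2646 cells (82.8%, exact binomial interval 81.3 to 84.2), and 103 passed the T cell gate (3.89%, 3.19 to 4.70). AD leukocytes held similar numbers of both, with 3248 myeloid cells of 7013 (46.3%, 45.1 to 47.5) and 2986 T cells (42.6%, 41.4 to 43.7). After each cell was thinned to 1000 UMIs, which left out 1 NB and 20 AD cells, T cells made up 1.66% of NB and 31.6% of AD leukocytes and myeloid cells 67.8% and 36.8%. Unassigned cells then made up 29.8% and 28.2%, and 10.6% and 6.19% unthinned.

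The small classes were B cells, with 9 NB and 142 AD cells (0.340% and 2.02%), and cells passing the plasma cell gate, with 23 and 136 (0.869% and 1.94%). The neutrophil gate took 36 and 55 cells (1.36% and 0.784%) and the mast cell gate 4 and 12. The names of these last gates were not checked by other genes. The plasma name did not hold in NB. *JCHAIN*, the joining chain gene, was found in 1 of the 23 NB cells of that gate. It was found in 133 of the 136 AD cells, at a median of 11.1% and a lower quartile of 1.11% of their UMIs, and in 85.3% of AD myeloid cells at a median of 0.0333%. Further, the NB cells carried a median of 3.06% of their UMIs on class II MHC genes, which plasma cells lose, against 0.0859% in AD. Those NB cells are therefore named only by their gate. Of the 9 NB cells of the B gate 7 held exactly the minimum of 2 marker UMIs, and their median class II share was 3.63%, against 1.34% in the AD B cells and 3.38% in NB myeloid cells, so they too are named only by their gate. The *PTPRC* rule also took few AD plasma cells, 27.0% of 503 (23.2 to 31.1), so the levels of plasma cell genes below are those of the part that kept *PTPRC*.

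**Figure D1:**
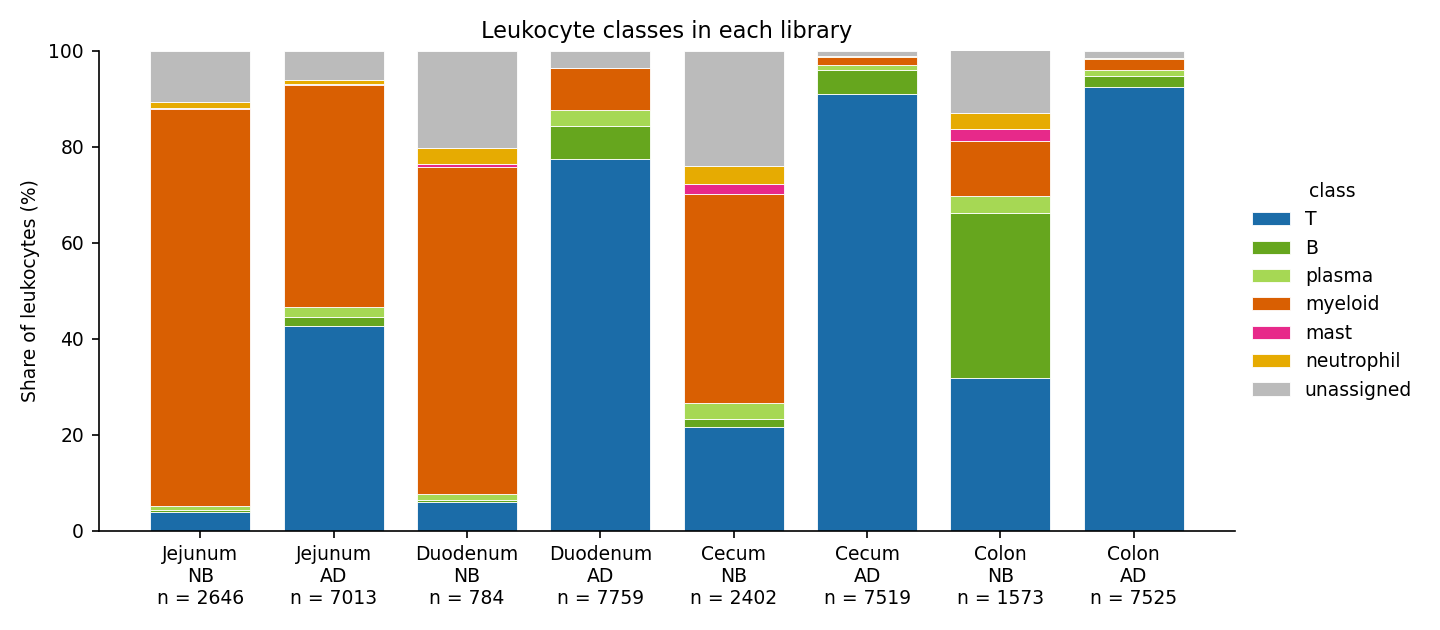
Shares of the 6 marker classes and of unassigned cells among leukocytes, as stacked bars in percent, for NB and AD jejunum, duodenum, cecum and colon. The jejunum bars hold 2646 NB and 7013 AD cells. In them the T segment takes up 3.89% in NB and 42.6% in AD, and the myeloid segment 82.8% and 46.3%.

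Summed over all leukocytes, 7214 genes were counted. Of these 162 (2.25%) were called higher in AD and 159 (2.2%) higher in NB, with a median log2 ratio of 0.15. A sum over a mixed population cannot tell fewer cells of a type from less RNA per cell, so the classes are described separately further on. Within the myeloid class 66 of the 162 genes higher in AD were called as well (40.7%), and 133 of the 159 higher in NB (83.6%). Of all counted genes of the class 1.13% and 2.12% were called. The class is itself part of the sums, with 24491758 of the 28300049 NB UMIs and 20810159 of the 41864578 AD UMIs. The 2 shares therefore do not have a like base.

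The 12 genes with a symbol that stood furthest apart with AD higher included *JCHAIN*, cytotoxic effector genes, T cell receptor subunits and *CXCL9*. *JCHAIN* stood at 10.6 CPM (9.44 to 11.9) in NB and 5325 CPM (5303 to 5347) in AD, a difference of 502-fold (448 to 564). Its log2 ratio of 8.42 became 7.39 with at least 2 *PTPRC* UMIs a cell and 7.44 with every cell weighing the same. It was 5.92 with the T and myeloid classes weighing the same, the only classes with at least 50 cells in both libraries. That value leaves out the cells of the plasma gate. The choice of cells and weights thus moved the ratio by more than the counting interval. An unnamed gene, ENSBTAG00000047700, gave 13 UMIs in NB and 467262 in AD, or 0.459 and 11160 CPM. The granule genes were nearly absent from the NB sum: *GZMB*, a serine protease that triggers death of target cells and whose symbol is carried by 2 identifiers, stood for ENSBTAG00000010057 at 0.919 CPM in NB and 507 CPM in AD, *GZMA*, a related protease, at 1.201 CPM in NB and 261 CPM in AD, and *GNLY*, a pore-forming antimicrobial protein, at 7.07 CPM in NB and 707 CPM in AD, 100-fold (87.0 to 116) higher. The T cell receptor subunits *CD3D* and *CD3E* stood at 4.49 against 284 CPM and 21.6 against 796 CPM in NB and AD. *CD52*, a small surface glycoprotein of lymphocytes, and *UBD*, a ubiquitin-like protein induced by interferon-gamma, reached 60.2 against 2067 CPM and 64.6 against 2221 CPM. With the T and myeloid classes weighing the same, *CD3D*, *CD3E*, *CD52* and *UBD* fell under the limit, with log2 ratios of 1.74, 1.02, 1.2 and 1.38. All 7 genes of the GIMAP family, GTPases that support lymphocyte survival, were called higher in AD, with a median log2 ratio of 4.23. *GIMAP4* had a ratio of 1.81 with the T and myeloid classes weighing the same. Within the T class the same 7 had a median of 1.29 and none was called.

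The genes that led in NB included neutrophil-attracting chemokines, chaperones and immediate early genes. *CXCL3*, a ligand of the neutrophil receptor *CXCR2*, stood at 754 CPM (744 to 764) in NB and 8.93 CPM (8.05 to 9.89) in AD, 84.3-fold (76.2 to 93.7) higher in NB. Its relative *GRO1* stood at 1535 CPM in NB and 23.7 CPM in AD, and *IL1A*, an alarm cytokine, at 206 CPM in NB and 4.66 CPM in AD. Among the chaperone and proteotoxic stress genes *ZFAND2A* stood at 1067 CPM in NB and 20.7 CPM in AD, *BAG3*, a partner of HSP70, at 1016 CPM in NB and 24.4 CPM in AD, *DNAJA4* at 241 CPM in NB and 6.76 CPM in AD and the inducible HSP70 gene *HSPA6* at 327 CPM in NB and 12.5 CPM in AD. Transcription factors in the list were *EGR1*, with 906 against 48.4 CPM in NB and AD, *ATF3*, with 803 against 43.4 CPM, *KLF4*, with 159 against 4.75 CPM, and *HES1*, the Notch target, with 414 against 17.3 CPM. *HTRA1*, a secreted protease, completed the 12 at 271 against 10.2 CPM. The folds of these 12 genes in the sums ranged from 18.5-fold (17.6 to 19.4) for *ATF3* to that of *CXCL3*.

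**Figure D2:**
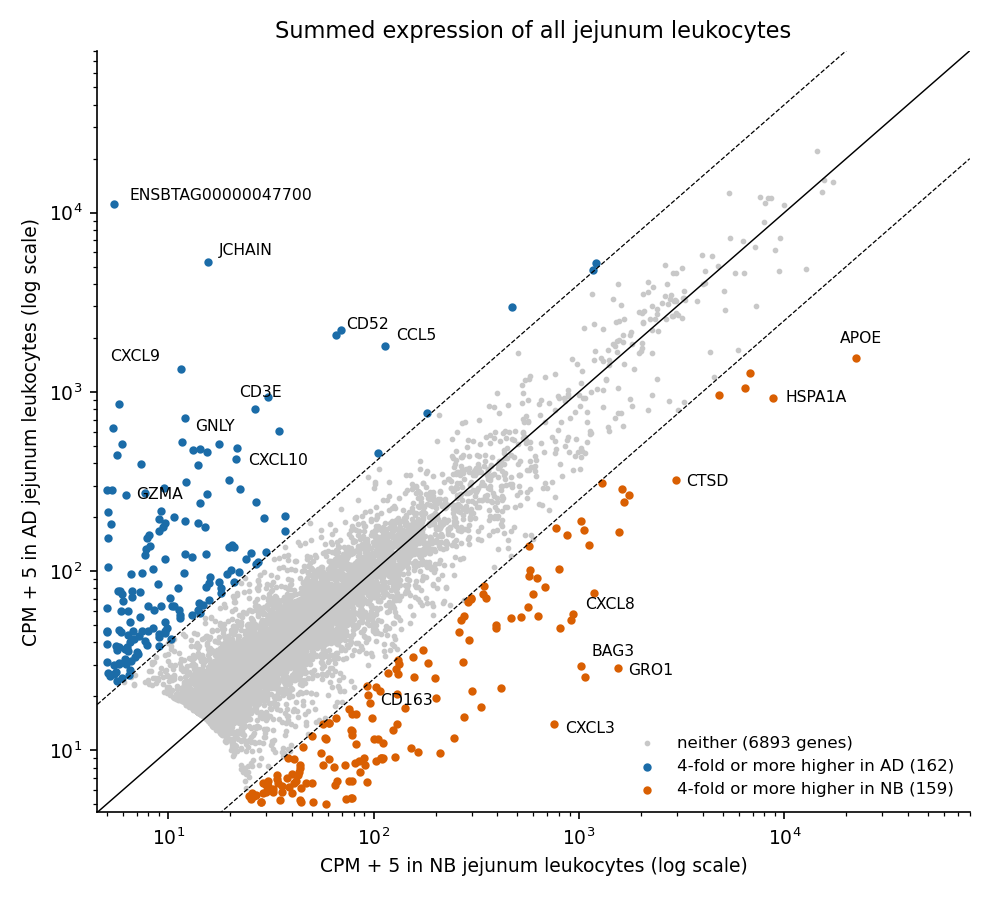
Summed expression of all jejunum leukocytes, with CPM + 5 in NB on the horizontal and in AD on the vertical axis, both on log scales. Each point is 1 of 7214 counted genes; the dashed lines mark the 4-fold limit, above which 162 genes are coloured as higher in AD and below which 159 are coloured as higher in NB.

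Within the myeloid class, which pools macrophages and dendritic cells, 7015 genes were counted, 79 (1.13%) higher in AD and 149 (2.12%) higher in NB, with a median log2 ratio of 0.11. Those higher in AD held 6 genes of the T cell receptor list, 5 of the GIMAP family, 3 of the cytotoxic list and 2 of the plasma cell list. What part of these came from RNA of other cells was not tested. The interferon-gamma-induced chemokines that draw *CXCR3*-positive T cells were among the genes furthest apart. *CXCL9* stood at 7.27 CPM (6.24 to 8.42) in NB and 2376 CPM (2355 to 2397) in AD, 327-fold (282 to 381) higher in AD, *CXCL10* at 17.6 CPM in NB and 757 CPM in AD, 43.1-fold (39.2 to 47.6) higher, and *CXCL11* at 0.980 CPM in NB and 133 CPM in AD. *CXCL9* was found in 2.10% of NB and 39.6% of AD myeloid cells, and in 0.731% and 28.8% after thinning. In the AD T class, which should lack it and was read to a median of 4108.5 UMIs against 5339 in the myeloid class, 4.76% of cells held it. The AD level was uneven: the 10% of myeloid cells with the most *CXCL9* UMIs held 82.9% of them, and the highest cell spent 10.3% of its UMIs on it.

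Of 20 counted interferon-stimulated genes in the whole myeloid class, *CXCL9* and *CXCL10* were called higher in AD and none in NB, and the list median was 0.30, against 0.11 over all counted genes. *GBP2*, an interferon-induced GTPase, stood at 32.6 CPM in NB and 144 CPM in AD and the regulator *IRF1* at 93.1 CPM in NB and 223 CPM in AD, both under the limit on the log2 scale. The antiviral gene *MX1* stood at 21.7 against 24.0 CPM in NB and AD and *IFI6* at 156 against 148 CPM. *ISG15*, a ubiquitin-like protein of the type I response, ran the other way, at 407 CPM in NB and 98.1 CPM in AD, a log2 ratio of -2.0 that fell just short of the limit and was -2.08 without cells that held stromal UMIs. *IDO1*, an interferon-induced enzyme that degrades tryptophan, stood at 4.41 CPM in NB and 251 CPM in AD, 56.8-fold (47.0 to 69.4) higher in AD.

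None of the 8 counted class II MHC genes and none of the 11 counted class I genes of the lists passed the 4-fold limit in the myeloid class. Their median log2 ratios were 0.61 and 0.88, with members from -0.51 to 1.36 and from -0.54 to 1.50. *JSP*, a class I gene that the list does not hold under this symbol, did pass the limit, higher in AD, and is given at the end. The class II genes together made up a median of 3.38% of the UMIs of an NB myeloid cell and 7.02% of an AD one, with the middle cells of each library between 2.72% and 4.04% in NB and between 5.13% and 8.99% in AD, so the quartile ranges did not overlap. *CD74*, the invariant chain, stood at 15010 CPM in NB and 38670 CPM in AD and *BOLA-DRA*, the class II alpha chain, at 15820 CPM in NB and 22700 CPM in AD.

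Of 8 counted dendritic cell genes 4 were called higher in AD in the myeloid class, with a median log2 ratio of 1.67, and 2 were with every cell weighing the same or with a pseudocount of 10 CPM. *IRF8*, a transcription factor of dendritic cells and macrophages, stood at 15.2 CPM in NB and 197 CPM in AD, *FCER1A*, the alpha chain of the IgE receptor, at 17.1 CPM in NB and 123 CPM in AD, *FLT3*, the growth factor receptor of dendritic cells, at 25.03 CPM in NB and 122 CPM in AD and *LAMP3*, a marker of mature dendritic cells, at 2.29 CPM in NB and 33.2 CPM in AD. *CLEC9A*, of the cross-presenting subset, stood at 28.1 CPM in NB and 74.96 CPM in AD and was not called. *FLT3* was also a gate gene of the class. Cells with *FLT3* and fewer than 2 UMIs of the C1Q genes, called *FLT3* cells here, made up 157 of the 2190 NB (7.17%, 6.12 to 8.33) and 484 of the 3248 AD myeloid cells (14.9%, 13.7 to 16.2), so the share of such cells moved with these genes. Among the *FLT3* cells 6727 genes were counted, 28 (0.416%) higher in AD and 213 (3.17%) higher in NB, with a median log2 ratio of 0.19. Of 8 counted dendritic cell genes 1 was called higher in AD there, with a median of 1.34, and of 16 counted interferon-stimulated genes 4 were, with a median of 1.08. Markers of other cell types were higher in NB there too, with 4 of 4 counted fibroblast and muscle markers and 3 of 6 epithelial ones called, and their part was not tested.

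To describe the macrophages apart from them, cells with at least 2 UMIs of *C1QA*, *C1QB* or *C1QC*, the complement genes of resident macrophages, and 0 of *FLT3* were summed alone. They numbered 1836 in NB (83.8% of the class) and 2505 in AD (77.1%). Among them 6951 genes were counted, 95 (1.37%) higher in AD and 151 (2.17%) higher in NB, with a median log2 ratio of 0.08. Of 20 counted interferon-stimulated genes 3 were called higher in AD and 1 in NB, with a median of 0.37. *CXCL9* stood at 8.23 CPM in NB and 2743 CPM in AD and *CXCL10* at 18.3 CPM in NB and 896 CPM in AD, with log2 ratios of 7.70 and 5.28, and *IRF8* stood at 13.6 CPM in NB and 155 CPM in AD. *FCER1A* stood at 2.61 against 2.55 CPM. *IDO1* was higher in AD in both subsets and at a lower level in C1Q cells: it stood at 1.41 against 42.5 CPM in C1Q cells and at 19.4 against 604 CPM in *FLT3* cells. *CXCL11* stood at 1.10 against 199 CPM in C1Q cells and at 1.02 against 2.06 CPM in *FLT3* cells. *ISG15* was called higher in NB in C1Q cells, at 449 against 37.7 CPM, and stood at 188 against 218 CPM in *FLT3* cells.

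Of 21 counted macrophage genes in the myeloid class 1 was called higher in AD, *FCGR3A*, and 2 higher in NB, *APOE* and *CTSD*, with a median log2 ratio of -0.45 and members from -3.21 to 2.22. *C1QA* stood at 10820 against 9422 CPM in NB and AD, *C1QB* at 5003 against 3345 CPM and *CSF1R*, the receptor on which macrophages depend, at 878 against 499 CPM, all of them gate genes and under the limit. Among the genes that the gate did not use, *TIMD4*, a phosphatidylserine receptor of long-lived macrophages, stood at 585 against 456 CPM, *FOLR2* at 765 against 575 CPM, the engulfment receptor *MERTK* at 73.1 against 78.1 CPM and *TREM2*, a lipid-sensing receptor, at 85.2 against 82.8 CPM. In C1Q cells 1 of 23 counted genes of the list was called higher in AD and 2 higher in NB, with a median of -0.06. *FCGR3A*, an IgG receptor, was higher in AD, at 109 CPM in NB and 526 CPM in AD, 4.82-fold (4.62 to 5.03). *CFI*, the complement factor that cleaves C3b, stood at 4.82 CPM in NB and 54.9 CPM in AD, and the chemokine receptor *CX3CR1* at 11.3 against 66.1 CPM. In C1Q cells *CX3CR1* stood at 6.33 against 12.4 CPM.

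Of 11 counted genes of lipid handling in the myeloid class 4 were called higher in NB and none in AD, with a median of -1.46, and in C1Q cells 3 of 11 were. *APOE*, the apolipoprotein that carries cholesterol out of cells, stood at 25800 CPM (25740 to 25860) in NB and 3080 CPM (3056 to 3104) in AD, 8.38-fold (8.31 to 8.45) higher. It took a median of 2.65% of the UMIs of an NB myeloid cell, with quartiles of 0.616% and 4.31%, and 0.346% of an AD one, with quartiles of 0.0322% and 0.679%. *CTSD*, a lysosomal protease gene of the macrophage list, stood at 3383 CPM in NB and 362 CPM in AD, 9.35-fold (9.13 to 9.58) higher. Beside *APOE* the called genes of the list were *CD36*, a fatty acid and lipoprotein receptor, at 96.4 CPM in NB and 6.15 CPM in AD, *SPP1*, osteopontin, at 38.3 CPM in NB and 2.45 CPM in AD, and *FABP5*, a fatty acid carrier, at 652 CPM in NB and 122 CPM in AD. In C1Q cells *APOE* still stood at 31100 against 4974 CPM, *CTSD* at 4057 against 532 CPM and *CD36* at 111 against 9.48 CPM, while *FABP5* fell short of the limit with a log2 ratio of -1.93. Iron and haem genes lay the same way, with a median of -1.31 over 8 counted genes. Only *SLC11A1*, the phagosomal metal transporter, was called, at 82.0 CPM in NB and 7.83 CPM in AD, and *FTL*, the ferritin light chain, *HMOX1*, the haem-degrading enzyme, and *CD163*, the haemoglobin scavenger receptor, stood at 7564 against 2193 CPM, 1160 against 359.8 CPM and 105 against 26.4 CPM. *CD163* was called over all leukocytes, where it stood at 90.6 against 13.5 CPM, but not within the class.

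Inflammatory cytokine genes were among those that led in NB myeloid cells. *GRO1* stood at 1674 CPM in NB and 17.5 CPM in AD, 95.5-fold (86.1 to 106) higher, *CXCL3* at 798 CPM in NB and 10.2 CPM in AD, *CXCL8*, the main neutrophil chemoattractant, at 989 CPM in NB and 91.2 CPM in AD, and *TNF* at 411 CPM in NB and 50.4 CPM in AD. *IL10*, the cytokine that restrains macrophages, was also higher in NB, at 116 CPM in NB and 19.4 CPM in AD, as was *IL1A*, at 184 CPM in NB and 6.82 CPM in AD, whereas *IL1B*, at 245 CPM in NB and 88.5 CPM in AD, was not called. *CXCL8* was found in 63.4% of NB and 16.8% of AD myeloid cells, against 11.7% and 0.636% of T cells. Of 12 counted NF-kB targets 4 were called higher in NB and none in AD, among them the feedback inhibitors *NFKBIA*, at 1532 against 302 CPM, and *TNFAIP3*, at 330.1 against 63.5 CPM. In *FLT3* cells *TNF* stood at 1051 against 45.9 CPM and *CXCL8* at 1012 against 14.2 CPM, and 6 of 12 counted NF-kB targets were called higher in NB.

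Of the 40 lists, that of immediate early and stress genes, the longest, held the most genes called higher in NB in the myeloid and T classes. Some shorter lists had a larger share called, such as the fibroblast and muscle markers, with 3 of 3 and 8 of 9 counted genes. Of all counted genes 2.12% and 4.02% were called higher in NB in these classes. The stress list holds genes that are switched on within minutes of handling, heat or digestion as well as by signals in the tissue. In the myeloid class 20 of 28 counted genes were called higher in NB and none in AD, with a median log2 ratio of -2.81. In the T class 19 of 28 were called, with a median of -2.39, and 16 of 27 without cells that held stromal UMIs, and over all leukocytes 19 of 28, with a median of -2.70. *HSPA1A*, an inducible HSP70 gene, stood at 8568 CPM in NB and 743 CPM in AD in the myeloid class and at 12100 CPM in NB and 1221 CPM in AD in the T class. *HSP90AA1*, the stress-inducible HSP90, stood at 5991 against 821 CPM in NB and AD myeloid cells, and the AP-1 subunits *JUN* and *FOS* at 4796 against 901 CPM and 1131 against 130.1 CPM.

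The stress signal was spread over the cells of the NB library. The list made up a median of 3.90% of the UMIs of an NB leukocyte, with 1 in 10 cells below 1.10% and a maximum of 14.8%. In AD leukocytes the median was 0.590%, with 1 in 10 cells above 1.54%. Most NB cells thus lay above most AD cells, with a lower quartile of 2.24% in NB. The median was 3.72% against 0.426% in the myeloid class and 4.71% against 0.819% in the T class. Stage, animal and dissociation cannot be told apart for this list either.

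The median of the proliferation genes was negative in the myeloid class and positive in the T class. In the myeloid class all 18 counted genes were lower in AD, with a median of -1.22, and 3 passed the limit, or 2 without cells that held stromal UMIs. The cell cycle gene *RRM2* stood at 43.5 against 4.18 CPM and *MKI67*, a marker of cycling cells, at 59.7 against 19.5 CPM, found in 8.77% of NB and 3.17% of AD cells. In C1Q cells none of 16 counted genes passed the limit, with a median of -0.66, whereas in *FLT3* cells 18 of 22 were called higher in NB, with a median of -2.65, on 157 NB cells. In the T class *MKI67* stood at 45.7 CPM in NB and 246 CPM in AD, in 5.83% of NB and 15.5% of AD cells, and the median over 22 counted genes was 1.01. *MKI67* was the only one of the 22 past the limit in the T class, and 6 passed it once cells with stromal UMIs, described below, were left out. Of 6 counted genes of fetal growth 2 were called higher in NB myeloid cells. *IGF2BP3*, an RNA-binding protein of fetal tissues, stood at 83.7 CPM in NB and 6.78 CPM in AD, and *IGF2*, a growth factor, at 62.8 CPM in NB and 0.384 CPM in AD. *IGF2* is made by fibroblasts, whose markers summed to 243 CPM in NB and 5.91 CPM in AD myeloid cells. Without the cells that held a stromal UMI its log2 ratio was -1.28, under the limit. With every cell that held a stromal UMI removed, 1409 NB and 3222 AD myeloid cells remained, and 80 (1.15%) genes were called higher in AD and 120 (1.73%) in NB, with 20 of the stress list and 4 of the lipid list still among the latter.

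**Figure D3:**
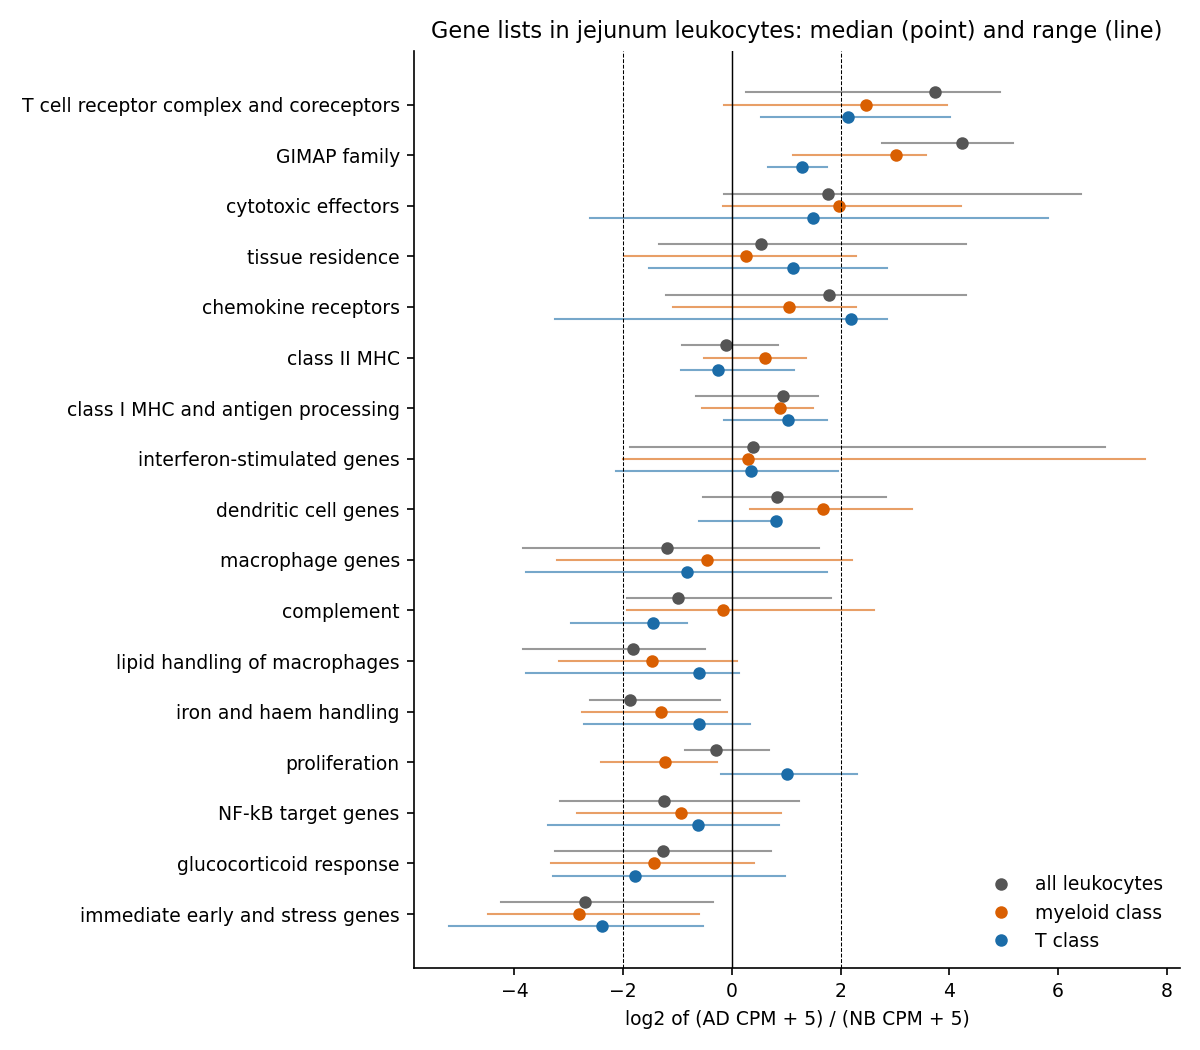
Median log2 ratio of AD to NB (points) and range (lines) over the counted genes of 17 lists, for all leukocytes, the myeloid class and the T class. The dashed lines mark 4-fold; the stress list lies at -2.70, -2.81 and -2.39, whereas the T cell receptor list moves from 3.73 over all leukocytes to 2.14 within the T class.

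The T class rested on 103 NB cells with 481025 UMIs against 2986 AD cells with 15064422, so 1 UMI stood for about 2.08 CPM in NB. Exactly the minimum of 2 marker UMIs was held by 17 of the NB cells (16.5%) and 2.34% of the AD cells. The NB cells are called T cells by that gate alone. As given below, *CD4*, *CD5* and *CD6* were low in them and *XCL1*, *IL22* and *KIT* higher than in AD, while *LCK* was not called. Whether the gate also took innate lymphoid cells was not tested. Of 6964 counted genes 75 (1.08%) were called higher in AD and 280 (4.02%) higher in NB, with a median of 0.22. The fibroblast and muscle markers summed to 800 CPM in NB and 11.2 CPM in AD T cells, and 8 of their 9 counted genes were called higher in NB. The epithelial markers summed to 443 and 76.3 CPM, with 4 of 6 counted genes called higher in NB, and the endothelial markers to 222 and 6.37 CPM, with 2 of 2. *COL3A1*, a fibrillar collagen, *IGFBP3* and *IGF2* were among the 6 genes that led in NB, at 249.5 against 1.79 CPM, 345 against 0.465 CPM and 272 against 0.332 CPM. The T cell results were also computed on the 79 NB and 2958 AD cells without a stromal UMI, in which 134 genes (2.0%) instead of 280 were called higher in NB and 109 (1.63%) instead of 75 higher in AD. There *IGF2* had a log2 ratio of -1.44, under the limit. In those cells 4 of 6 epithelial markers were still called higher in NB, with a median of -2.82, so leaving out stromal UMIs did not remove the markers of other cell types.

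Of 14 counted T cell receptor and coreceptor genes in the class 8 were called higher in AD and none in NB, with a median of 2.14; without the cells that held stromal UMIs 4 were. The coreceptors were *CD4*, at 16.6 CPM (7.18 to 32.8) in NB and 176 CPM (169.6 to 183) in AD, 10.6-fold (5.37 to 24.6), *CD8A*, at 70.7 CPM (49.0 to 98.8) in NB and 329.9 CPM (321 to 339) in AD, 4.67-fold (3.34 to 6.75), and *CD8B*, at 31.2 CPM in NB and 183 CPM in AD. *CD4* was found in 2.91% of NB and 31.4% of AD T cells and *CD8A* in 24.3% and 45.2%, and after thinning in 0.971% and 14.5% and in 7.77% and 25.3%. Before thinning *CD4* was also found in 32.6% of NB and 45.8% of AD myeloid cells, and *CD8A* in 1.64% and 5.85%. *CD5* and *CD6*, inhibitory partners of the receptor on mature T cells, stood at 6.24 against 177 CPM and 14.6 against 180.2 CPM. The subunit *CD3E*, a gate gene, stood at 1050 against 2029 CPM, below the limit, and the kinase *LCK* at 306 against 447 CPM. The gamma delta T cell list summed to 237 CPM in NB and 117 CPM in AD T cells. None of its 3 counted genes was called, with a median log2 ratio of -1.85, and without cells that held stromal UMIs 1 was, higher in NB. In the myeloid class the list summed to 105.7 against 11.8 CPM, so in NB it was not particular to the T class.

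Cytotoxic effector genes divided. Of 12 counted genes 5 were called higher in AD and 1 in NB, and 4 and 1 without cells that held stromal UMIs. *GNLY* stood at 24.9 CPM (12.9 to 43.6) in NB and 1669 CPM (1649 to 1690) in AD, 66.9-fold (38.3 to 129.5) higher in AD. *GZMB*, for ENSBTAG00000010057, stood at 35.3 CPM in NB and 1270 CPM in AD, 36.0-fold (22.4 to 61.7) higher. The other identifier of that symbol was counted and was not called. *GZMA* stood at 37.4 CPM in NB and 662 CPM in AD, 17.7-fold (11.2 to 29.9) higher. *PRF1*, which encodes perforin, stood at 47.8 CPM in NB and 226 CPM in AD. *GZMK* had 0 UMIs in NB and 49.9 CPM in AD, which is 8.004-fold the level of 3 UMIs in the NB class. That level is a set floor and not the limit of an interval. *GZMA* was found in 4.85% of NB and 50.3% of AD T cells, and in 6.10% of AD myeloid cells. *NKG7*, a granule membrane protein, was not called and stood at 569.6 against 631 CPM. *CTSW*, a cysteine protease of killer cells, was the exception, at 1202 CPM in NB and 193 CPM in AD, 6.24-fold (5.70 to 6.83) higher in NB.

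Of 13 counted genes of tissue residence 4 were called higher in AD, none in NB and 9 neither, and the list summed to 2520 CPM in NB and 2493 CPM in AD. *CCR9*, the receptor for the small-bowel chemokine CCL25, stood at 12.5 CPM in NB and 122 CPM in AD, and *CXCR6*, a receptor of resident T cells, at 70.7 CPM in NB and 386 CPM in AD. *RUNX3*, a transcription factor of resident CD8 T cells, stood at 83.2 CPM in NB and 349 CPM in AD. *ITGA4*, an integrin chain used in homing, gave 2 UMIs in NB and stood at 4.16 against 46.7 CPM. *ITGAE*, the integrin that binds epithelial cadherin, stood at 12.5 against 34.5 CPM and was not called. *CXCR3*, the receptor for *CXCL9* and *CXCL10*, stood at 6.24 against 76.0 CPM, on 3 UMIs in NB, and *CCL5*, a chemokine of effector T cells, at 1079 CPM in NB and 4452 CPM in AD. *CXCR4*, a retention receptor, was higher in NB, at 299 against 26.8 CPM, and *CD69*, at 638 against 251 CPM, was not called. No gene of the 7 counted naive lymphocyte genes or the 8 counted regulatory T cell genes was called, and without cells that held stromal UMIs 1 regulatory gene was, *CTLA4*, an inhibitory receptor, on 2 UMIs in NB, with a log2 ratio of 2.52.

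Of 12 counted cytokine and chemokine genes of lymphocytes 3 were called higher in NB T cells, *IL22*, *IL17A* and *IL17F*, and 1, *CCL5*, higher in AD. Of 9 counted genes of innate lymphoid and NK cells *XCL1* alone was called, higher in NB. *XCL1*, a chemokine that attracts cross-presenting dendritic cells, stood at 484 CPM (424 to 551) in NB and 18.9 CPM (16.8 to 21.2) in AD, 25.6-fold (21.4 to 30.6) higher in NB. It was found in 40.8% of NB and 3.65% of AD T cells, and stood at 0.735 against 0.577 CPM in the myeloid class of NB and AD. *IL22*, the cytokine that stimulates epithelial defence, stood at 222 CPM (182 to 269) in NB and 7.30 CPM (6.001 to 8.80) in AD, 30.5-fold (23.1 to 40.1) higher, in 12.6% of NB and 0.804% of AD T cells, and in 8.74% and 0.369% after thinning. In NB myeloid cells, which should lack it and were read to a median of 11295 UMIs against 4050 in NB T cells, 0.411% held *IL22*. Of the 523 *IL22* UMIs of NB leukocytes 107 lay in the T class and 72 in the myeloid class, so most lay in cells of neither class. *IL17A* stood at 37.4 against 0.730 CPM, on 18 UMIs in NB and 11 in AD, and *IL17F* at 43.7 against 1.26 CPM, on 21 and 19 UMIs. *KIT*, a receptor of mast cells and innate lymphoid cells and a member of the mast cell list, stood at 99.8 against 16.2 CPM. Both counted genes of that list, *KIT* and *IL1RL1*, were called higher in NB T cells, and the list summed to 133 CPM in NB and 23.6 CPM in AD; without cells that held stromal UMIs *KIT* stood at a log2 ratio of -2.58 and *IL1RL1* at -1.07. The mast cell gate genes *CPA3*, *MS4A2* and *HPGDS* summed to 0 CPM in NB and 0.465 CPM in AD T cells. *IFNG*, interferon-gamma itself, was not called, at 60.3 CPM in NB and 122 CPM in AD. Without cells that held stromal UMIs *XCL1* and *IL22* remained higher in NB, with log2 ratios of -4.58 and -4.39, and *CD4* and *GNLY* higher in AD, with 4.01 and 5.96. *CD8A*, *PRF1*, *RUNX3* and *CCL5* then fell just under the limit, with log2 ratios of 1.94, 1.84, 1.88 and 1.88. The tissue residence list still had 4 genes called higher in AD there and the cytokine list 1, so other members passed the limit in their place.

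**Figure D4:**
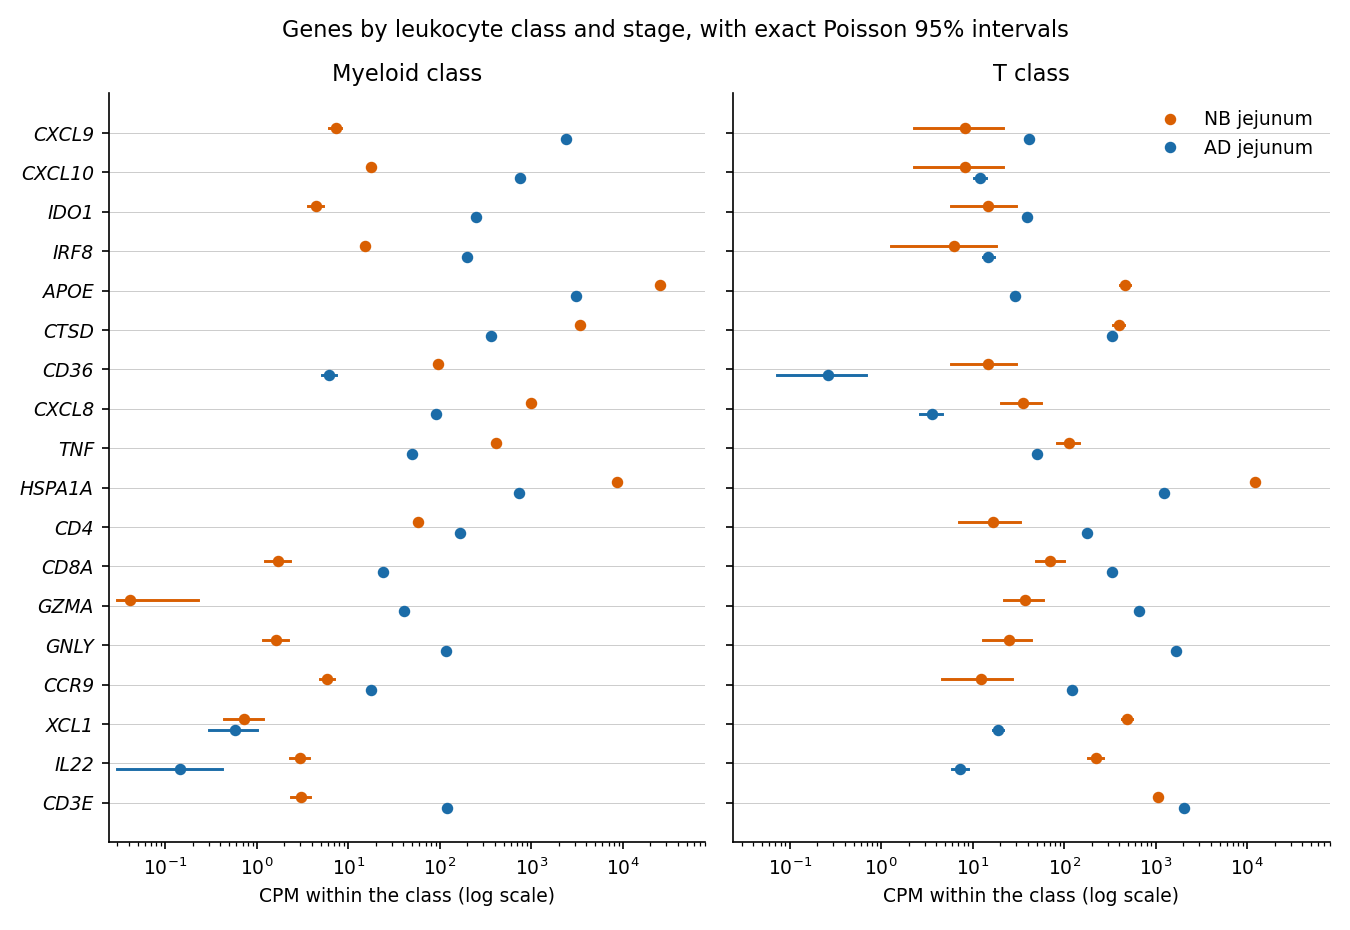
CPM of selected genes on a log axis within the myeloid class (left) and the T class (right) of NB and AD jejunum, with exact Poisson 95% intervals for counting error. *CXCL9*, *CXCL10* and *IDO1* separate the stages in the myeloid panel, *GNLY*, *GZMA* and *CD4* separate them in the T panel with NB lower, and *XCL1* and *IL22* with NB higher; *HSPA1A* is higher in NB in both.

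*JCHAIN* and ENSBTAG00000047700 in the AD leukocytes came mainly from the cells of the plasma gate, with 168842 of 222925 and 343990 of 467262 UMIs. *JCHAIN* stood at 104500 CPM in AD cells of the plasma gate, 1805 CPM in B cells, 1692 CPM in myeloid cells and 780.4 CPM in T cells. ENSBTAG00000047700 stood at 212800 CPM in the plasma gate and made up a median of 20.2% of the UMIs of those cells. It was also found in 94.3% of AD T cells and 93.9% of AD myeloid cells, at medians of 0.0699% and 0.0624% of their UMIs, against 0.971% and 0.411% of NB T and myeloid cells. *JCHAIN* was found in 83.8% of AD T and 85.3% of AD myeloid cells. Shares so alike in unlike classes are not read as expression here, for either gene. The sums were uneven: the 10% of AD myeloid cells with the most UMIs of a gene held 85.2% for *JCHAIN* and 87.9% for ENSBTAG00000047700. The highest cell spent 67.5% of its UMIs on the latter. In the AD plasma gate the lower quartile of this gene was 0.0698%, the level of the T class median. *CD3E* stood at 119 CPM in AD myeloid cells and 2029 CPM in AD T cells, so the T cell and cytotoxic genes called in the myeloid class are not read as expression there.

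Of 6 counted genes of the B cell and germinal centre list, 2 were called higher in AD, 1 higher in NB and 3 neither. The gate list of the B class summed to 75.6 CPM in NB and 90.1 CPM in AD over all leukocytes and to 81.6 and 35.0 CPM in the myeloid class, so in NB it was not particular to the B gate. *MS4A1*, which encodes CD20, stood at 3.43 CPM in NB and 43.1 CPM in AD and *CD79A*, a subunit of the B cell receptor, at 1.41 CPM in NB and 21.3 CPM in AD, the 2 that were higher in AD. The 1 called higher in NB was also a gate gene of the B class, with a log2 ratio of -2.16. In the myeloid class the 1 counted gate gene of B cells was called higher in NB as well, with a log2 ratio of -2.2. *MZB1*, an endoplasmic reticulum protein of plasma cells, gave 3 UMIs in NB and 100.5 CPM in AD.

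The same rule in the duodenum, cecum and colon shows which of these differences were shared. These tissues gave 784, 2402 and 1573 NB and 7759, 7519 and 7525 AD leukocytes. The AD libraries are of the same cow, so the tissues are not independent animals. T cells made up more of the AD than of the NB leukocytes in each: 5.99% and 77.4% in duodenum, 21.5% and 91.0% in cecum and 31.8% and 92.5% in colon. Myeloid cells made up 8.65% of AD leukocytes in duodenum, 1.77% in cecum and 2.29% in colon, so the AD jejunum, with 46.3%, held the highest myeloid share of the 4. AD jejunum and colon were digested with the same kit and AD duodenum and cecum with another.

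Of all counted genes of these tissues 4.26% were called higher in AD and 4.93% higher in NB in duodenum, 2.66% and 6.67% in cecum and 2.31% and 3.16% in colon. *GNLY* and *GZMA* were higher in AD in all 4 tissues, with log2 ratios between 3.25 and 5.60 for *GNLY* and between 3.51 and 6.26 for *GZMA* outside the jejunum. *CXCL3*, *GRO1*, *BAG3* and *HES1* were called higher in NB in all 4. The stress list was less even, with 11 of 27 counted genes called higher in NB in duodenum, 19 of 28 in cecum and 6 of 27 in colon, where 1 was called higher in AD. *JCHAIN* was called higher in AD in duodenum, with a log2 ratio of 9.91, and stood at 1.37 in cecum and 1.55 in colon.

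*CXCL9* stood furthest apart in jejunum over all leukocytes, where it had a log2 ratio of 6.86 against 3.16 in duodenum, -1.48 in cecum and 4.59 in colon. Within the myeloid class the ratio was 6.02 in duodenum, 2.68 in cecum and 9.17 in colon against 7.60 in jejunum, so AD was higher in each. *APOE* was called higher in NB over all leukocytes in every tissue, while within the myeloid class its ratio was -3.06 in jejunum against -1.43 in duodenum, 0.80 in cecum and -1.78 in colon. *CTSD* within the class was 0.60 in duodenum, 1.22 in cecum and -1.44 in colon against -3.21 in jejunum. *CCR9* over all leukocytes was 4.74 in duodenum, 1.05 in cecum and -0.72 in colon, against 2.63 in jejunum.

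**Figure D5:**
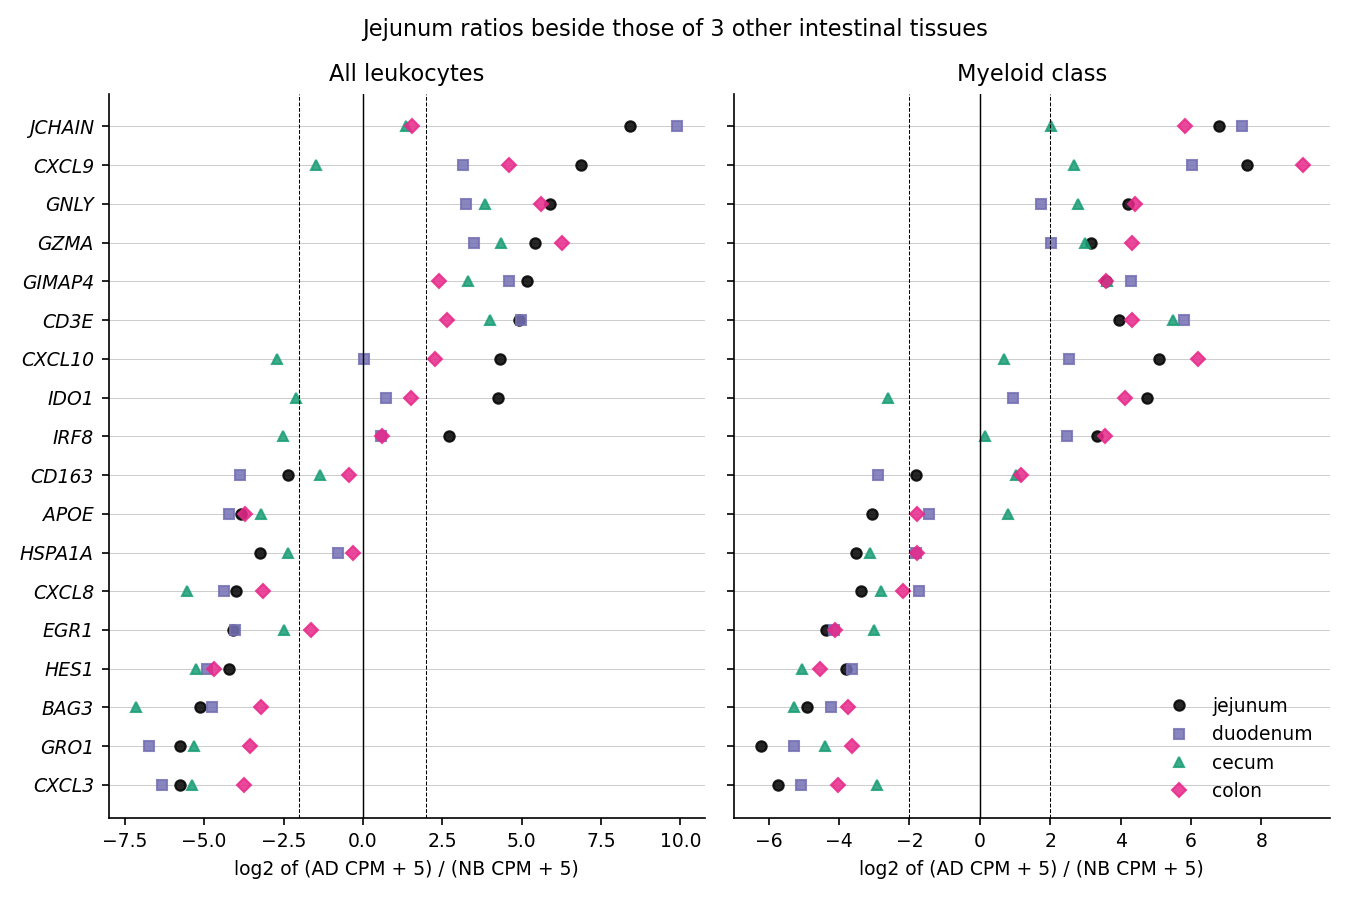
log2 ratio of AD to NB for selected genes in jejunum (black), duodenum, cecum and colon leukocytes, over all leukocytes (left) and within the myeloid class (right), with dashed lines at 4-fold. *GNLY*, *CXCL3*, *GRO1* and *HES1* keep their side in all 4 tissues in the left panel, whereas *CXCL9* in the cecum lies at -1.48 over all leukocytes and 2.68 within the class.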

How the data were processed

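Droplet 3′ single-cell libraries of NB and AD jejunum were analysed from the deposited counts, which are raw UMI counts per gene and barcode; the submitters' processing notes name Cell Ranger 3.1.0, and the authors' methods name the ARS-UCD1.2 assembly. The 27270 genes hold 19730 with a symbol and 7540 without. Only barcodes kept by the deposited filtering were seen. Counts of the leukocytes were summed per library and, by fixed marker lists, per class, and scaled to CPM with exact Poisson intervals. Shares carry exact binomial 95% intervals. No mitochondrial limit and no doublet removal was applied to the values printed; Scrublet was run as an alternative. The members and the 40 gene lists were chosen with earlier results of these data known. Named genes are the 12 furthest apart in each direction over all leukocytes, 6 in each direction within the T and myeloid classes, list members, and genes without a symbol; others are said to be chosen after their values were seen. A few genes that these rules name are not reported here. On simulated counts of 7056 genes with 8-fold changes, 100 of 100 raised and 100 of 100 lowered genes were called and 0 of 6856 unchanged. The simulation held counting noise alone, at the depth of all leukocytes, with changes only in genes of at least 50 CPM. It checks the arithmetic and does not cover animals, dissociation, the cell mix, lower genes or the T class. Figures were drawn with matplotlib 3.10.9, doublets scored with scanpy 1.11.5, intervals taken from SciPy 1.17.1 and tables handled in pandas 2.3.3, under Python 3.11.15 and NumPy 2.4.6.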

Additional observations from a re-analysis of the deposited data

Results flagged for a closer look

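Some jejunum differences ran the opposite way, by at least 4-fold each, in the leukocytes of another tissue. The difference between tissues was not tested, since each tissue and stage is 1 library. Against the cecum, *CXCL10* had a log2 ratio of 4.31 in jejunum and -2.70 in cecum leukocytes, *IDO1* 4.27 and -2.12, and *IRF8* 2.71 and -2.51. Within the myeloid class of the cecum, *IDO1* remained higher in NB, while *CXCL10* and *IRF8* lay within 4-fold. Against the colon, the B cell genes *MS4A1*, *CD79A* and VPREB3 had ratios of 2.51, 2.03 and 2.98 in jejunum and -2.10, -2.57 and -2.56 in colon, where B cells made up 34.3% of NB and 2.31% of AD leukocytes. ADAMDEC1 and CXCL14 ran from -2.70 and -3.80 in jejunum to 2.42 and 2.52 in colon. The unnamed gene ENSBTAG00000003408 had 4.86 in jejunum, -3.87 in cecum and -2.05 in colon, and ENSBTAG00000001219 had 5.75 in jejunum and -2.32 in colon.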

How the results depend on the processing

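No paired analysis was possible because each stage has 1 library, so no replicate could be left out either. Across the alternatives run, 642 recomputed values of 42 named gene results kept their direction and 634 stayed past 4-fold, while 216 moved by more than their counting interval. These 42 were picked as the furthest apart in the same data, so a change of direction or a lost call was unlikely. The alternatives that change only the filter on low values cannot move a ratio. Of the recomputed counts and shares 189 stayed within the limits set for them and 33 moved, as follows. A pseudocount of 1 CPM gave 167 genes higher in AD in the T class, and one of 10 CPM gave 46 and 170 genes higher in AD and NB there, 50 higher in AD in the myeloid class and 2 dendritic cell genes. With a mean CPM of at least 50, the counts higher in AD and NB were 76 and 86 over all leukocytes, 32 and 71 in the myeloid class and 35 and 103 in the T class, and 7 T cell receptor genes were called. Giving every cell the same weight called 3 macrophage and 2 dendritic cell genes. Giving the T and myeloid classes the same weight, without the other cells, called 51 genes higher in AD, 2 macrophage and 7 T cell receptor genes. Requiring 2 *PTPRC* UMIs gave 152 T class genes higher in AD, and leaving out cells with stromal UMIs gave 134 higher in NB. Alternatives added after seeing the data were a *PTPRC* gate on thinned cells, which gave 241 T class genes higher in AD, no *PTPRC* requirement, which gave 406 myeloid genes higher in NB, and C1Q cells alone, with 2 dendritic cell genes.

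The AD share of T cells was 41.3% with under 10% mitochondrial UMIs, 50.4% with 2 *PTPRC* UMIs and 50.8% with the thinned gate. It was 44.5% without the 622 AD and 327 NB leukocytes removed as doublets, 40.3% with 4 marker UMIs a class and 31.6% thinned. With no *PTPRC* requirement it was 34.7% of the cells placed in a class, whereas the other shares also count unassigned cells. The NB share was 3.11% with 2 *PTPRC* UMIs, 6.73% with the thinned gate, 2.61% with 4 marker UMIs and 1.66% thinned. The myeloid share ranged from 67.8% to 93.6% in NB and from 36.8% to 56.8% in AD. Both upper ends are those with no *PTPRC* requirement, again of the cells placed in a class alone, so they are not on the same base. Of the genes called, the part higher in AD was 50.5% over all leukocytes and 22.2% with the T and myeloid classes weighted alike. In the T class it was 21.1%, and 33.4% with a pseudocount of 1 CPM, 42.8% with 2 *PTPRC* UMIs, 44.9% without stromal UMIs, 32.0% without doublets, 32.6% with cells weighted alike and 55.4% with the thinned gate. In the myeloid class it was 34.6%, and 16.5% with no *PTPRC* requirement. Leaving mitochondrial and ribosomal genes out of the total put the median log2 ratio of all genes at 0.236, against 0.149. In the T class the 481025 NB UMIs make genes under about 10 CPM a matter of a few UMIs, and the NB B and plasma classes held 119005 and 345444.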

Other observations

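Smaller lists complete the picture of the jejunum leukocytes. Among glucocorticoid-responsive genes 5 of 11 counted in the T class and 3 of 10 in the myeloid class were called higher in NB and none in AD, with medians of -1.78 and -1.43. *DUSP1*, a phosphatase that is also a stress gene, stood at 1628 CPM in NB and 158 CPM in AD in the myeloid class, *SGK1*, a kinase, at 658 CPM in NB and 119.5 CPM in AD, and *DDIT4*, an inhibitor of growth signalling, at 308 CPM in NB and 39.3 CPM in AD, while the receptor gene *NR3C1* stood at 91.7 against 122 CPM. Of 20 counted genes of energy and oxidative stress 1 was called in the myeloid class, *SOD2*, the mitochondrial superoxide dismutase, at 287 CPM in NB and 66.2 CPM in AD. Complement genes were close, with 1 of 12 called and a median of -0.16, and none of the 3 counted S100A genes was called. In the T class 1 of 9 counted genes of innate lymphoid and NK cells was called, *XCL1*, and their median was -1.29. *KLRB1* and *FCER1G*, genes of innate lymphocytes, stood at 22.9 against 3.25 CPM and 214 against 68.6 CPM.

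The following genes were chosen after their values were seen. *TNFSF14*, a *TNF* family ligand of lymphocytes, stood at 1380 CPM in NB and 95.1 CPM in AD T cells, and at 9.15 and 7.74 CPM in the myeloid class. *JSP*, a class I MHC gene, stood at 1175 CPM in NB and 6044 CPM in AD myeloid cells, a log2 ratio of 2.36, past the limit that no counted gene of the class I list reached, and at 2682 and 4853 CPM in T cells. ALOX5AP, the activating protein of leukotriene synthesis, stood at 338 and 30.1 CPM in the myeloid class, and CLEC3B, which encodes tetranectin, at 133 and 6.82 CPM there and at 154 and 1.195 CPM in the T class.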
